A study of Mus musculus and Homo sapiens with 30 samples.

Results

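A set of 10 mouse genes and 2 human genes of the contractile apparatus and of the SRF and YAP transcriptional programmes was followed in breast cell lines given adipocyte secretome. The mouse genes were Acta2, Actg2, Tagln, Cnn1, Myl9, Tpm1, Tpm2, Cald1, Ccn1 and Ccn2, which are 10 of the 56980 gene IDs in the mouse count table. The human genes were ACTA2 (ENSG00000107796) and TAGLN (ENSG00000149591), 2 of 61552 IDs in the human table. The set was chosen with earlier results from these libraries in view, in which Tagln was among the largest decreases in NMuMG cells with lean over obese secretome, and Acta2 among the largest with lean secretome over control medium. The NMuMG values of both lean contrasts are therefore given below as a description, with no test. For the set, tests are given for E0771, for SkBr3 and for obese secretome against control in NMuMG. Genes of related lists, used further below, also carry adjusted p-values for lean over obese in NMuMG. Apart from the main upstream factors, they were named for a large called change of lean over obese in NMuMG or E0771. Those p-values are a description and give no support.

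The 3 established lines were NMuMG, a mouse mammary epithelial line, E0771, a mouse mammary cancer line, and SkBr3, a human breast cancer line. Each line grew for 36 h before 16 h in 1 of 3 media. Control was the line's usual growth medium, and the others were mixtures with 50% adipocyte secretome (medium conditioned by inguinal fat cells) of lean or obese origin. All media were DMEM with 10% FBS, and that of NMuMG also held insulin at 10 mcg/ml and glucose at 4.5 g/L, so line and growth medium cannot be told apart. The control held no secretome, so only lean against obese was matched for the share of secretome. Poly(A) RNA was sequenced from 3 libraries per medium in each mouse line and 4 per medium in SkBr3. Total counts per library were 23966897 to 29686456 in NMuMG, 22929035 to 31094119 in E0771 and 18479433 to 29195499 in SkBr3. The labels do not say that replicates were separate cultures, so p-values measure the spread between these libraries, which may be technical. Lean replicate 3 stood apart in E0771 and in SkBr3: in a chi-square comparison of counts between replicates, its pairs gave 8.29 and 8.54 per degree of freedom in E0771 against 2.29 for the other lean pair, and 10.5 to 15.4 in SkBr3 against 3.98 to 6.38 among the other lean pairs.

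Serum response factor, SRF, binds a short AT-rich element named the CArG box, and its cofactors of the MRTF family move to the nucleus when globular actin is used up by filament assembly. YAP and its relative TAZ (Wwtr1) are coactivators that reach DNA through TEAD proteins and are held in the cytoplasm by the Hippo kinases. Both systems read cell shape and tension. In the mammary gland, smooth muscle actin and its partners mark the contractile myoepithelial cells and activated fibroblasts, while Ccn1 and Ccn2 encode secreted matricellular proteins and are widely used YAP readouts that SRF also controls.

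RefSeq promoter windows, from 250 bases before to 50 after the annotated start in build GRCm38.p6, were found for 7 of the 10 mouse genes. 3 of them are shown, those of a smooth muscle actin and a myosin light chain, whose lean contrasts had opposite signs in the 2 mouse lines, and of a CCN protein that was higher with lean secretome in both. Capitals mark CArG boxes with at most 1 inner mismatch and the TEAD motif CATTCC on either strand. The windows lie at chr19:34255324-34255623 on the minus strand for Acta2, chr2:156775214-156775513 on the plus strand for Myl9 and chr3:145649936-145650235 on the minus strand for Ccn1, each written 5′ to 3′ along the gene.
Acta2: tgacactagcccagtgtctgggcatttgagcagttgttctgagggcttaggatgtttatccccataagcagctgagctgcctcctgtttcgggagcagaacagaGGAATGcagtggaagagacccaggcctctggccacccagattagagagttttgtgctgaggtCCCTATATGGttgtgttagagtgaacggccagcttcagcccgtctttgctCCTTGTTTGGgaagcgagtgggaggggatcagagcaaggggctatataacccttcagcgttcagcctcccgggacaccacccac
Myl9: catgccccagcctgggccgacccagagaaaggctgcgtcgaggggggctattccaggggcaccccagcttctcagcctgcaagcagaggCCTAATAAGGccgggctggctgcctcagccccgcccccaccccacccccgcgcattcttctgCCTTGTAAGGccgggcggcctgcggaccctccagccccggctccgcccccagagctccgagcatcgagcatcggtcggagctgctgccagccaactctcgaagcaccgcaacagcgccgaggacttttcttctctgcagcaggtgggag
Ccn1: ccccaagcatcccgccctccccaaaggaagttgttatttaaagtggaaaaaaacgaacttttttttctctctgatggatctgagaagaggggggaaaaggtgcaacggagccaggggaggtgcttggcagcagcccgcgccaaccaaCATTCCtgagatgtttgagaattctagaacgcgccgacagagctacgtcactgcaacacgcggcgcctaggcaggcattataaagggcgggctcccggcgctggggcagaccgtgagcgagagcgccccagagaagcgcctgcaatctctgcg
The Acta2 window held 2 CArG boxes with 1 mismatch, from -84 to -75 and from -34 to -25 relative to the start, and the reverse complement GGAATG of the TEAD motif from -146 to -141. The Myl9 window held an exact CArG box from -161 to -152 and one with 1 mismatch from -99 to -90. The Ccn1 window held the TEAD motif from -103 to -98. Among 32851 mouse promoters of the same length, 1.63% held an exact CArG box, 8.5% one with 1 inner mismatch and 14.7% the TEAD motif. Of the other windows, that of Tpm1 and a window of Cald1 held GGAATG. Another Cald1 window and those of Cnn1 and Tpm2 held none of these motifs. The matches describe sequence only.

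The lines started from different levels. In CPM (counts scaled to a common library size) per kilobase of exon in control medium, NMuMG ranked Tpm1 (138 ± 0.35, SD, n = 3), Ccn2 (119 ± 3.43), Ccn1 (74.5 ± 2.58), Cald1 (38.5 ± 1.17), Acta2 (8.24 ± 0.135) and Tagln (6.02 ± 0.863), with Myl9, Cnn1, Tpm2 and Actg2 under 1. E0771 ranked Tpm1 (44.4 ± 2.29), Cald1 (24.7 ± 0.0955), Tpm2 (16.4 ± 0.379), Acta2 (8.57 ± 0.447), Ccn1 (2.17 ± 0.176) and Ccn2 (1.33 ± 0.0411), with Myl9, Tagln, Actg2 and Cnn1 under 1. Neighbouring genes named here differed by more than their SDs, but Cnn1 (0.2 ± 0.0858) and Tpm2 (0.123 ± 0.0185) in NMuMG did not, nor did Tagln (0.0789 ± 0.0195), Actg2 (0.0486 ± 0.0614) and Cnn1 (0.0107 ± 0.0185) in E0771.

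In control medium Acta2 was at 18.1 ± 0.3 CPM in NMuMG and 18.8 ± 0.983 in E0771 (SD, n = 3; log2 difference NMuMG minus E0771 0.07, SE 0.0789, edgeR adjusted p = 0.445), a difference within the spread between libraries. Ccn2 was higher in NMuMG by 6.61 on the log2 scale, Ccn1 by 5.23, Tpm1 by 1.76, Myl9 by 0.84 and Cald1 by 0.76. Tpm2, a tropomyosin that coats actin filaments, was lower by 6.92 (log2 difference -6.92). Of the 7 genes that could be tested in each line alone, these 6 passed at an adjusted p under 0.05 (Myl9 at 0.0246, the others at 2.26e-16 or less), beside 80.5% of 16529 genes. Tagln had 268 to 407 counts per NMuMG control library against 3 to 5 in E0771, and Cnn1 11 to 23 against 0 to 2. Both entered the fit of the 2 lines only through NMuMG, so no fold or count is read from them. The Myl9 difference lost its call in 6 of 23 alternative settings, among them leaving out NMuMG control replicate 3 (adjusted p = 0.122) and E0771 control replicate 1 (0.0643) or 3 (0.0572).

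The labels were set against marker genes. Of 11 epithelial markers, NMuMG carried Krt8 (3430 CPM in control), Krt18 (2510), Krt19 (760.3), Cdh1 (541), Tjp1 (360) and Krt7 (107), with Epcam at 2.18, Cldn4 at 0.916 and Cldn3, Cldn7 and Esrp1 at 0 in control. E0771 carried Tjp1 (273) and Krt8 (255), and the other 9 had at most 8 counts in any library. Of 10 fibroblast markers, E0771 carried Col1a1 (687), Col3a1 (130), Pdgfra (117) and Pdgfrb (96.7), while Col1a2 was at 0.263 CPM, Lum at 0.0396, Dcn at 0.0125 and Postn, Thy1 and Fap at 0 in control. Myocd, the smooth muscle cofactor of SRF, had 0 counts in every mouse library and Myh11, smooth muscle myosin, at most 7. The summed adipocyte markers were at 2.02 to 2.08 CPM with lean secretome in NMuMG, 0.331 to 0.973 with obese and 0.32 to 0.688 in control. Nearly all of this was the lipid droplet protein Cidec, the 1 of 6 tested, which rose by 1.66 with lean over obese (edgeR adjusted p = 4.4e-05), while Plin1, Lep and Cfd had 0 counts. The part of these markers in the NMuMG results was not tested. In E0771 the sum did not exceed 0.262 CPM.

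**Figure D1:**
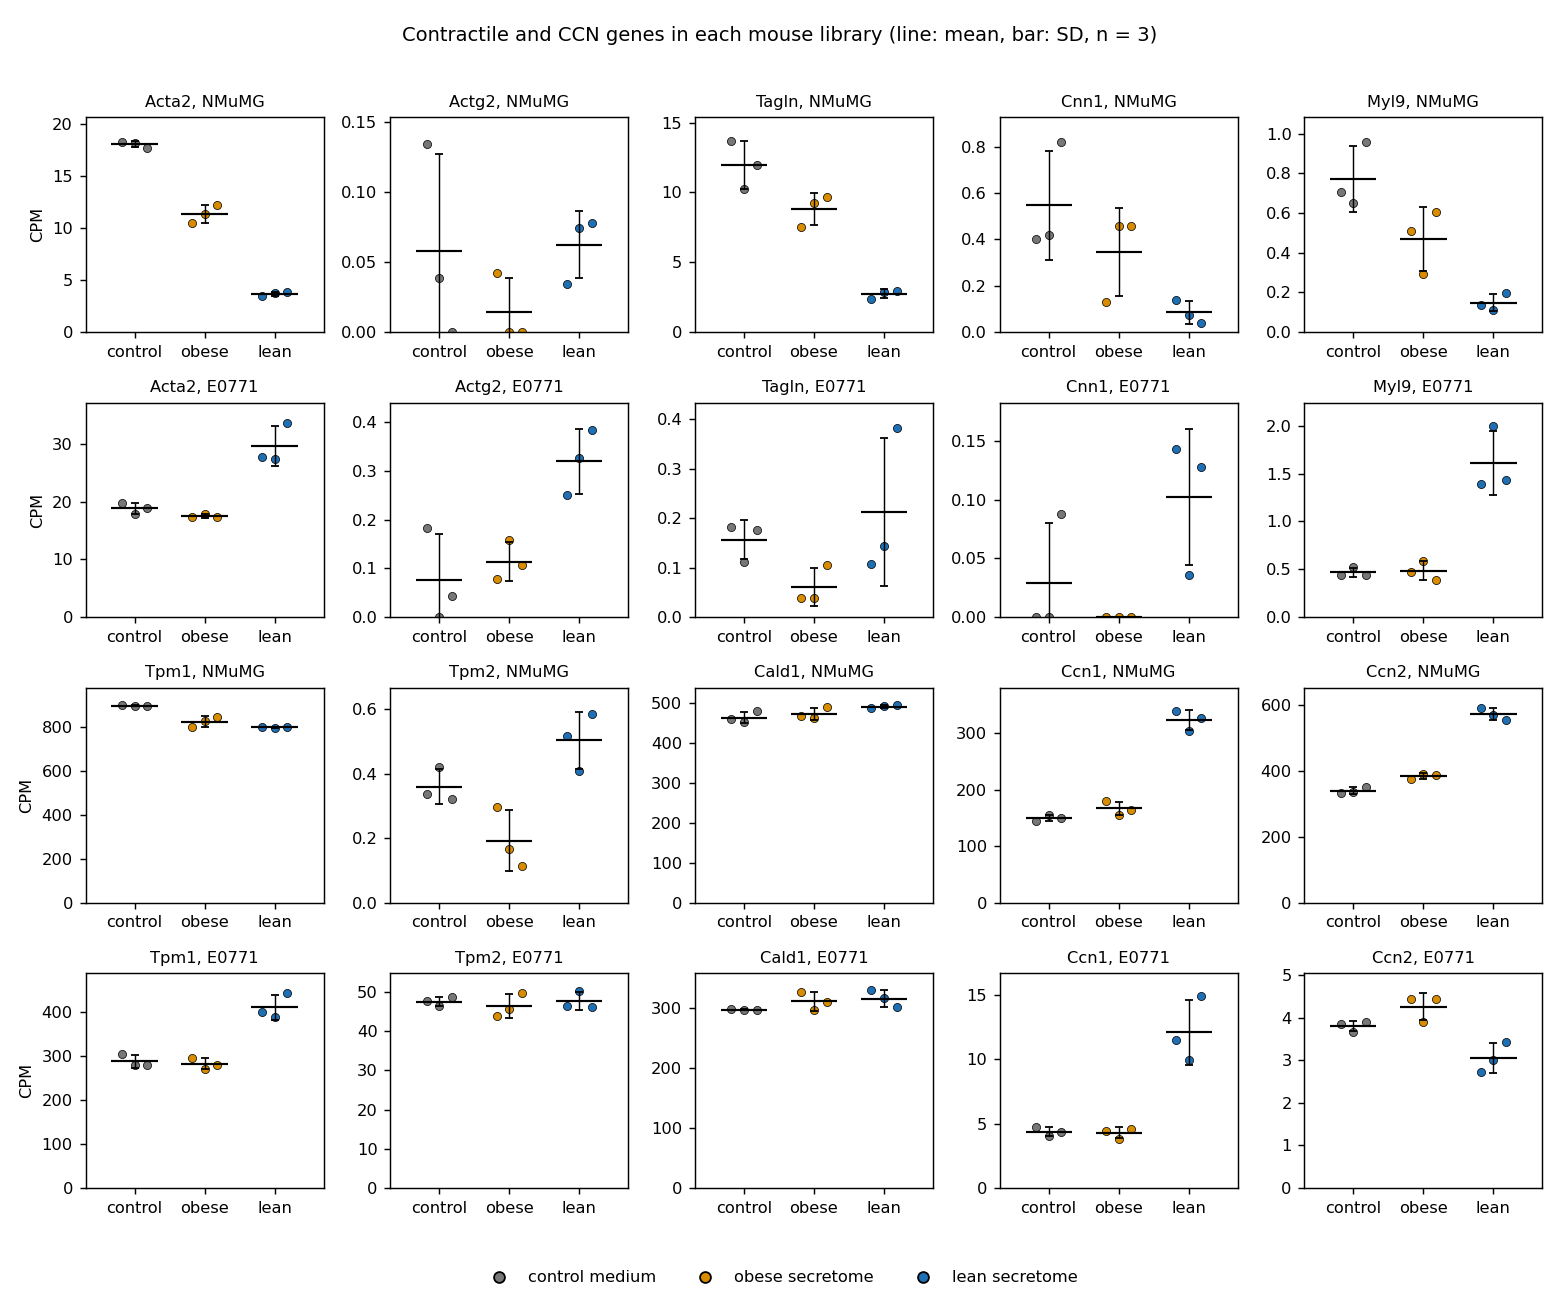
CPM of the 10 genes (y axis, linear from 0, a scale for each panel) in every library of NMuMG and E0771, by medium (x axis). Points are libraries, lines are means and bars are SDs (n = 3). Acta2, Tagln and Myl9 of NMuMG were lowest with lean secretome, while Acta2 and Myl9 of E0771 were highest with it.

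In NMuMG, the smooth muscle genes were low with lean secretome and intermediate with obese secretome. Acta2 (ENSMUSG00000035783), smooth muscle alpha-actin, was at 18.3, 18.2 and 17.8 CPM in control, 10.5, 11.4 and 12.3 with obese and 3.41, 3.75 and 3.81 with lean secretome. The 3 media did not overlap. The log2 fold change was -1.64 (SE 0.104) for lean over obese and -2.31 (SE 0.0967) for lean over control. Tagln (ENSMUSG00000032085), the actin-binding protein transgelin or SM22, was at 13.7, 10.2 and 12.0 CPM in control, 7.53, 9.24 and 9.69 with obese and 2.38, 2.86 and 2.96 with lean secretome. Its media did not overlap either. The log2 fold change was -1.70 for lean over obese and -2.14 for lean over control. Bulk RNA cannot tell fewer cells of a type from less RNA per cell.

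The next genes of the smooth muscle group rested on few reads. Myl9 (ENSMUSG00000067818), the regulatory light chain of non-sarcomeric myosin, was at 0.772 ± 0.166 CPM in control, 0.469 ± 0.163 with obese and 0.148 ± 0.0424 with lean secretome (SD, n = 3; 3 to 27 counts per library). Its lean libraries lay under all others (log2 fold change -1.65, SE 0.506, over obese and -2.36 over control). Cnn1 (ENSMUSG00000001349), calponin, which slows actin-activated myosin, was at 0.547 ± 0.235, 0.346 ± 0.19 and 0.0836 ± 0.0501 CPM in the same order (1 to 23 counts). Its log2 fold change was -1.98 (SE 0.657) over obese and -2.61 over control, and 1 obese library lay at 0.127, just under the highest lean library at 0.138. Actg2 (ENSMUSG00000059430), enteric gamma-actin, had 0 to 4 counts and was not tested.

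Of the filament regulators, the abundant Tpm1 and Cald1 differed little between media in NMuMG, unlike the low Tpm2. Tpm1 (ENSMUSG00000032366), alpha-tropomyosin, was at 898 ± 2.27 CPM in control, 824 ± 24.3 with obese and 798 ± 2.37 with lean secretome, a log2 fold change of -0.05 for lean over obese and -0.17 for lean over control. Cald1 (ENSMUSG00000029761), caldesmon, was at 463 ± 14.1, 474 ± 15 and 492 ± 3.96 CPM in the same order (0.05 over obese, 0.09 over control). Tpm2 (ENSMUSG00000028464), beta-tropomyosin, was at 0.359 ± 0.0539, 0.192 ± 0.0939 and 0.503 ± 0.0883 CPM, from 3 to 15 counts per library, and was higher with lean than with obese secretome (log2 fold change 1.39, SE 0.48).

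The CCN genes lay the other way in NMuMG. Ccn1 (ENSMUSG00000028195) was at 145, 156 and 150.4 CPM in control, 180, 156 and 165 with obese and 339.8, 304 and 328 with lean secretome. Ccn2 (ENSMUSG00000019997) was at 333, 337 and 352 CPM in control, 376, 393 and 389 with obese and 591, 572 and 555 with lean secretome. All lean libraries lay above all others for both genes. The log2 fold changes of lean over obese were 0.96 for Ccn1 and 0.57 for Ccn2, and over control 1.11 and 0.75.

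Counted by the test on all genes, 3 of the 9 NMuMG genes tested were higher and 4 lower with lean than with obese secretome, beside 17.6% higher and 17.4% lower of 15014 genes. Against control the lean secretome gave 3 higher and 5 lower, beside 19.1% in each direction. The members were chosen on these contrasts, so nothing is read from these counts. The median log2 fold change of the 9 genes was -0.05 over obese and -0.17 over control, against -0.002 and -0.005 over all genes tested.

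Obese secretome against control in NMuMG lowered Acta2, Tagln and Tpm1 and raised Ccn2. Acta2 fell by 0.67 on the log2 scale (SE 0.0816, edgeR adjusted p = 9.49e-07), Tagln by 0.44 (SE 0.109, 0.0117) and Tpm1 by 0.12 (SE 0.03, 0.0102), and Ccn2 rose by 0.18 (SE 0.0335, 0.000577). All 3 obese libraries lay beyond all 3 controls for each of the 4. The other genes did not pass: Ccn1 differed by 0.15 (adjusted p = 0.099), Myl9 by -0.71 (0.343), Cnn1 by -0.64 (0.528), Tpm2 by -0.90 (0.396) and Cald1 by 0.03 (0.692). The count was thus 1 higher and 3 lower of 9, against 2.34% higher and 2.66% lower of all genes, and 5 at an unadjusted p under 0.05. The median of the 9 genes was -0.44, and that of all genes was 0. This contrast shares its control and obese libraries with the ones that chose the genes. Tagln lost its call when control replicate 1 (adjusted p = 0.16) or obese replicate 1 (0.0942) was left out and in a fit of all 18 mouse libraries (0.0502), and Tpm1 lost it in the same settings (0.071, 0.0968 and 0.0894). Ccn1 passed when lean replicate 2 (adjusted p = 0.0317) or obese replicate 2 (0.00741) was left out, with no filter on low counts (0.00266) and with only the 2 groups compared (0.0287).

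**Figure D2:**
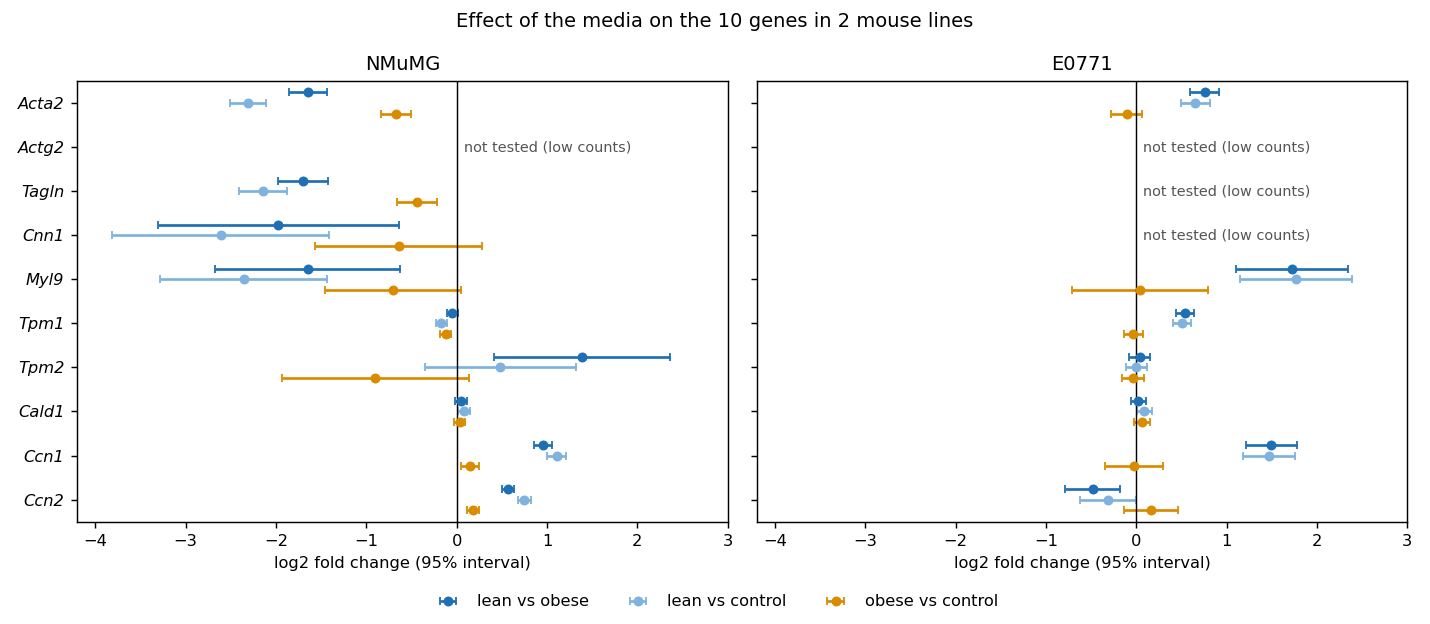
Log2 fold change (x axis) of each gene (y axis) for the 3 contrasts in NMuMG and E0771, from the edgeR fits. Points are estimates and bars are 95% intervals. Acta2 and Myl9 lay left of 0 in NMuMG and right of 0 in E0771 for both lean contrasts, and Ccn1 lay right of 0 for them in both lines.

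In E0771, lean secretome raised Acta2, Myl9, Tpm1 and Ccn1 against both other media. Acta2 was at 19.8, 17.8 and 18.9 CPM in control, 17.3, 17.8 and 17.4 with obese and 27.7, 27.4 and 33.5 with lean secretome. The lean libraries lay above the rest, and control and obese overlapped. The log2 fold change was 0.76 over obese (SE 0.0785, adjusted p = 1.84e-08) and 0.65 over control (SE 0.0782, 1.32e-07). Myl9 was at 0.467 ± 0.0497 CPM in control, 0.484 ± 0.101 with obese and 1.61 ± 0.334 with lean secretome (10 to 55 counts per library). It rose by 1.73 over obese (SE 0.298, adjusted p = 2.87e-05) and by 1.77 over control (SE 0.302, 2.17e-05).

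Tpm1 was the only tropomyosin of the set to change in E0771. It was at 305, 280 and 279 CPM in control, 295.5, 271 and 279 with obese and 399.5, 388 and 442 with lean secretome, a rise of 0.54 over obese (SE 0.0486, adjusted p = 9.13e-09) and of 0.51 over control (1.59e-08). Tpm2 was at 47.6 ± 1.1, 46.4 ± 3 and 47.7 ± 2.31 CPM in control, obese and lean (lean over obese 0.04, 95% interval -0.08 to 0.155, adjusted p = 0.606). Cald1 was at 297 ± 1.12, 311 ± 15.8 and 316 ± 13.5 CPM (0.02, -0.06 to 0.106, 0.678), and its difference over control was 0.09 (0.0702), which passed without lean replicate 3 (0.0116) or without obese replicate 2 (0.0445).

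Ccn1 and Ccn2 moved apart in E0771. Ccn1 was at 4.72, 4.01 and 4.38 CPM in control, 4.45, 3.82 and 4.61 with obese and 11.5, 9.93 and 14.9 with lean secretome, so every lean library was above every other. It rose 2.82-fold over obese (log2 SE 0.137, adjusted p = 3.81e-09) and 2.77-fold over control (log2 SE 0.138, 3.75e-09). Ccn2 was at 3.84, 3.67 and 3.90 CPM in control, 4.45, 3.90 and 4.43 with obese and 2.72, 3.01 and 3.42 with lean secretome. It fell by 0.48 against obese (SE 0.148, adjusted p = 0.00849). The difference from control, -0.32 (SE 0.151, 0.0776), did not pass, although the lean libraries lay under all controls, and it passed without lean replicate 3 (0.0421).

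The other smooth muscle genes were too low to test in E0771. Actg2 had 7 to 12 counts with lean secretome, 0 to 5 in control and 2 to 4 with obese, and the lean libraries (0.32 ± 0.0668 CPM) lay above the others. Tagln had 3 to 12 counts with lean secretome, 3 to 5 in control and 1 to 3 with obese. Cnn1 had 1 to 4 counts with lean secretome, 0 to 2 in control and 0 in all 3 obese libraries, which allows up to 0.0379 CPM over that group, a limit for counting error only.

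Without lean replicate 3, the log2 fold changes of lean over obese in E0771 were 0.66 for Acta2, 1.80 for Myl9, 0.48 for Tpm1, 1.32 for Ccn1 and -0.57 for Ccn2, and all 5 kept their calls (adjusted p = 0.00501 or less). Over control they were 0.55, 1.84, 0.45 and 1.29 for the first 4, which also kept theirs (4.22e-05 or less).

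Of the 7 genes tested in E0771, 4 rose and 1 fell between lean and obese secretome, against 25.8% and 26.9% of 13813 genes. Against control 4 rose and 0 fell (6 at an unadjusted p under 0.05; DESeq2 also called 4 higher and 0 lower), with 27.3% and 29% of all genes. The median log2 fold changes were 0.54 and 0.51, against 0.003 and -0.013 over all genes. Obese secretome against control gave 0 calls among the 7 in edgeR and in DESeq2 and 0 at an unadjusted p under 0.05, with 1.21% of all genes higher and 1.4% lower. For Acta2 that difference was -0.11 (95% interval -0.28 to 0.065, adjusted p = 0.602). The summed fibroblast markers moved with medium in E0771, at 419 to 443 CPM with lean, 736 to 980 with obese and 977 to 1080 in control. Of the 10 markers 4 were tested and 3 fell with lean over obese, Fap had 0 counts throughout, and most of the sum was Col1a1 (687 CPM in control, 204 with lean and 524 with obese). The part of these markers in the results was not tested.

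The response of several genes had opposite signs in the 2 mouse lines. The log2 fold change of lean over obese in NMuMG minus that in E0771 was -2.42 for Acta2, -3.39 for Myl9 and 1.03 for Ccn2, with every lean library on one side in one line and on the other side in the other. Against control the differences were -2.99, -4.15 and 1.04, and that of Tpm1 was -0.71. Ccn1 was higher with lean secretome in both lines. In a fit of both lines, 6 of the 7 genes that could be tested in each line alone differed between lines in lean over obese, beside 34.2% of all genes, and 4 of 7 in lean over control, beside 34.5%. Since the NMuMG side chose the genes, these counts carry no test. Obese over control did not choose them, but it shares its NMuMG control and obese libraries with the contrasts that did, so it is not independent of the choice. For it, 1 of 7 differed, beside 1.69% of all genes. That gene was Acta2 (-0.57, SE 0.116, adjusted p = 0.00433), and it kept its call in 23 of 23 alternative settings (-0.63 to -0.52).

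**Figure D3:**
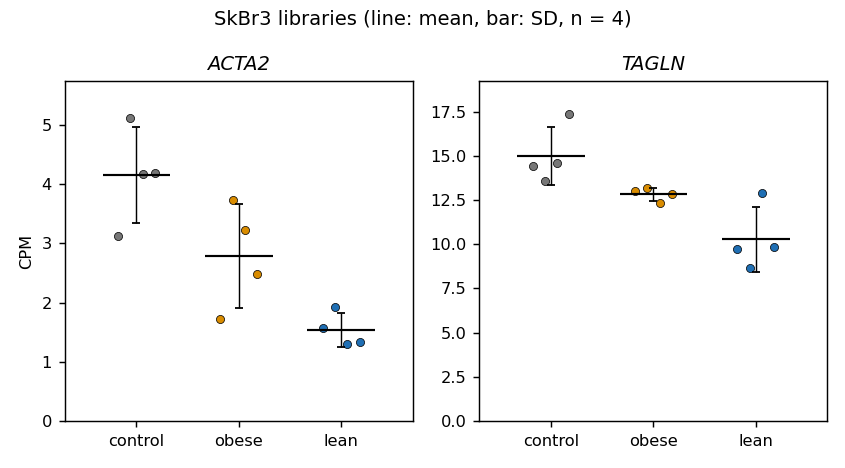
CPM of ACTA2 and TAGLN (y axis, linear from 0) in the SkBr3 libraries by medium (x axis). Points are libraries, lines are means and bars are SDs (n = 4). Lean libraries were lowest on average for both genes, at 1.53 and 10.3 CPM.

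In SkBr3, lean secretome lowered both human genes. ACTA2 was at 3.13, 5.12, 4.17 and 4.19 CPM in control, 1.72, 3.73, 3.22 and 2.48 with obese and 1.57, 1.93, 1.29 and 1.34 with lean secretome. Lean and control did not overlap, and the lowest obese library lay within the lean range. ACTA2 fell by 0.86 against obese (SE 0.221, adjusted p = 0.00351) and by 1.44 against control (SE 0.213, 1.17e-05), from 25 to 132 counts per library. TAGLN was at 14.4, 13.6, 14.6 and 17.4 CPM in control, 13.0, 13.2, 12.3 and 12.8 with obese and 9.74, 8.65, 12.9 and 9.84 with lean secretome. 1 lean library lay within the obese range. TAGLN fell by 0.33 against obese (SE 0.101, adjusted p = 0.0103) and by 0.55 against control (SE 0.1, 8.87e-05). Without lean replicate 2, the TAGLN difference from obese lost its call (adjusted p = 0.0581). Without lean replicate 3, ACTA2 differed from obese by -0.79 (0.00558) and TAGLN by -0.45 (8.33e-05), and from control by -1.37 (9.24e-06) and -0.67 (9.58e-08).

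Both genes were thus lower in SkBr3 in both lean contrasts, and 0 of 2 were higher. Among all 14874 genes, 21.1% were higher and 23.1% lower over obese, and 23.7% and 25.1% over control. Obese against control gave 0 calls of 2 in edgeR and in DESeq2 (2 at an unadjusted p under 0.05), with 0.605% of genes higher and 0.551% lower. The differences were -0.58 for ACTA2 (adjusted p = 0.152) and -0.22 for TAGLN (0.302), and that of ACTA2 passed without obese replicate 2 (0.0471).

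The wider programmes were read from lists of related genes, which were chosen with earlier results known. Apart from the main upstream factors, the genes named in either line were picked for a large called change. Their adjusted p-values therefore give no support. In NMuMG, 12 of 20 other YAP-TEAD targets rose and 2 fell with lean over obese secretome (median log2 fold change 0.30, against -0.002 over all genes). Over all genes 17.6% were higher and 17.4% lower. Amotl2, a YAP-binding angiomotin, rose by 0.57 (SE 0.0395, adjusted p = 1.62e-12), the kinase Nuak2 by 0.50 (5.87e-09) and the nuclear ankyrin-repeat protein Ankrd1 by 0.48 (8.8e-14). Against control 12 rose and 2 fell, beside 19.1% of all genes in each direction. With obese over control 2 rose and 2 fell, beside 2.34% higher and 2.66% lower. In E0771, 15 of the 20 were tested, and 4 rose and 6 fell with lean over obese (median -0.03), beside 25.8% and 26.9% of all genes. Tissue factor, F3, rose by 0.62 (3.54e-08) and the ligand Tgfb2 by 0.90 (0.0101) there, and the receptor kinase Axl fell by 0.43 (1.63e-09). In NMuMG the same genes moved the same way: F3 by 0.335 (0.0241), Tgfb2 by 0.476 (9.34e-05) and Axl by -0.235 (1.05e-07).

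Other contractile and actin-binding genes were split in both lines. In NMuMG, 33 of 40 were tested, of which 14 rose and 10 fell (median 0.06), beside 17.6% and 17.4% of all genes. The kinase of the myosin light chain, Mylk, rose by 0.39 (adjusted p = 4.32e-07), and the non-muscle myosin Myh10 fell by 0.39 (7.47e-07). Tgfb1i1, a focal adhesion adaptor, fell by 0.44 (0.0215). In E0771, 34 were tested, and 13 rose and 15 fell (median 0.05), beside 25.8% and 26.9%. Synpo2, an actin-bundling protein of muscle, rose by 1.98 (SE 0.305, adjusted p = 3.23e-05), skeletal actin Acta1 by 1.52 (0.00414, mean 0.799 against 0.281 CPM) and the scaffold Pdlim7 by 0.82 (6.95e-08).

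Immediate-early genes that SRF controls rose in part, and the shares over all genes are those just given. In NMuMG 4 of 9 tested rose and 0 fell, among them Fos by 0.77 (adjusted p = 0.000917), Nr4a1 by 0.37 (0.00424) and Egr1 by 0.22 (0.0237). In E0771 4 of 7 tested rose and 2 fell: Fos by 1.40 (0.0149) and Fosb by 1.24 (0.000323) rose, and Egr3 fell by 1.47 (3.1e-07). Among TGF-beta ligands, receptors and targets, 3 rose and 7 fell of 17 in NMuMG, where the receptor Tgfbr2 rose by 0.66 (5.74e-15) and the co-receptor Tgfbr3 and the latent-complex protein Ltbp2 fell by 0.74 (0.0049) and 0.64 (1.64e-07). In E0771 3 rose and 6 fell of 14, with the matrix protein Tgfbi and the ligand Tgfb3 down (-1.27, adjusted p = 5.21e-05, and -0.49, adjusted p = 1.78e-06). Of the other CCN genes, Ccn4 rose in both lines (0.15 in NMuMG, adjusted p = 0.0236, and 0.41 in E0771, adjusted p = 9.21e-06), Ccn5 rose in E0771 (0.35, 0.000968) and Ccn3 fell in NMuMG (-0.71, 0.0141).

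The upstream factors were split between lean and obese secretome. Of 28 tested in NMuMG 7 rose and 7 fell, beside 17.6% and 17.4% of all genes, and of 26 in E0771 8 rose and 6 fell, beside 25.8% and 26.9%. Srf differed by 0.02 in NMuMG (adjusted p = 0.756) and by 0.04 in E0771 (0.492), Mrtfa by -0.04 (0.548) and 0.12 (0.0715), Mrtfb by 0.05 (0.449) and -0.02 (0.773) and Yap1 by 0.06 (0.193) and -0.03 (0.532). TAZ (Wwtr1) rose in E0771 (0.23, 0.000253) but differed by -0.07 in NMuMG (0.185). Tead4 rose in both lines (0.31 in NMuMG, adjusted p = 0.000152, and 0.24 in E0771, adjusted p = 0.00033). Tead1 rose by 0.18 (0.000154) and Tead2 fell by 0.23 (7.87e-05) in NMuMG, where Tead3 differed by 0.00 (0.99). In E0771 Tead1 differed by -0.12 (0.0938), Tead2 by -0.08 (0.142) and Tead3 by -0.02 (0.853). Limk1, the kinase that keeps actin filaments from being severed by cofilin, rose in both, by 0.43 in NMuMG (adjusted p = 1.36e-06) and by 0.70 in E0771 (adjusted p = 3.01e-09).

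**Figure D4:**
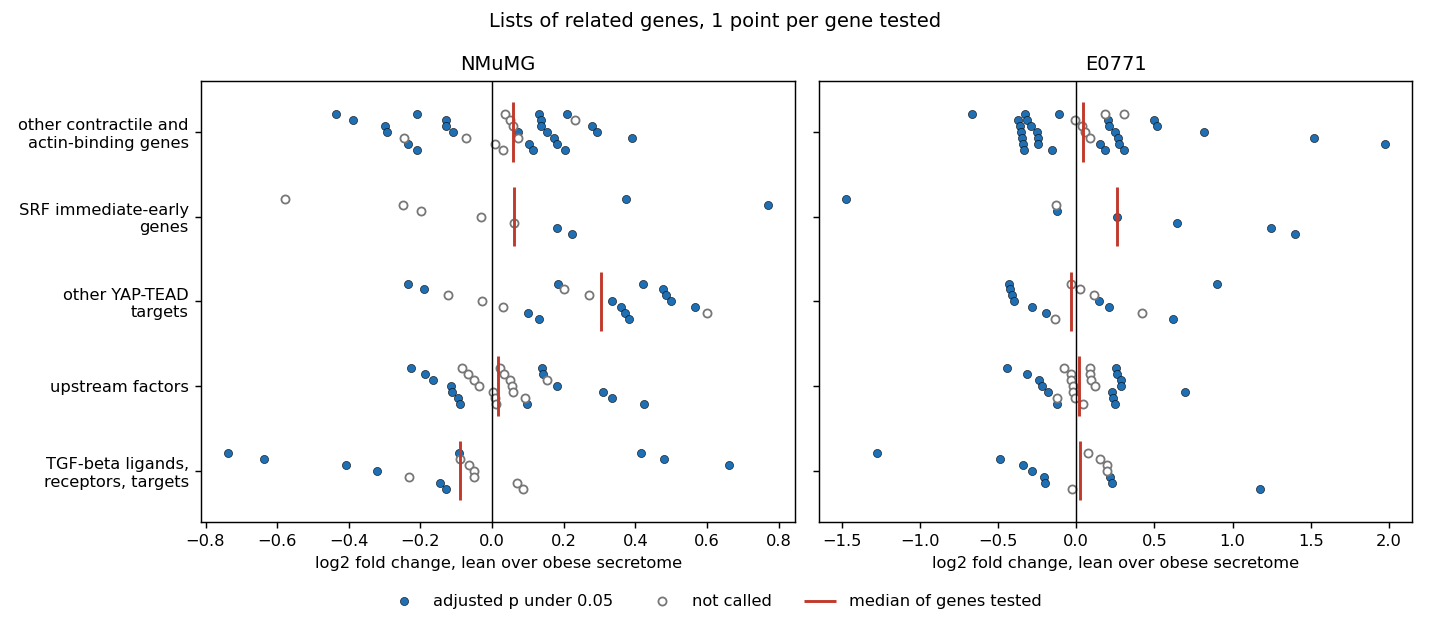
Log2 fold change of lean over obese secretome (x axis, a scale for each line) for each gene tested in 5 lists (y axis), in NMuMG and E0771. Filled points had an adjusted p under 0.05 and red lines are medians of the genes tested. The YAP-TEAD targets had a median of 0.30 in NMuMG and -0.03 in E0771.

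Markers of the myoepithelial lineage lay beside these values. Krt5 rose with lean over obese secretome in NMuMG by 3.64 (SE 0.286, adjusted p = 3.67e-10), from 0.483 to 5.97 CPM, while Acta2 was lower. Krt14 rose in E0771 by 2.46 (SE 0.433, adjusted p = 3.7e-05), from 0.226 to 1.26 CPM. There 2 of the 6 myoepithelial markers were tested, and 1 rose and 0 fell, beside 25.8% and 26.9% of all genes. In NMuMG 1 of the 2 myoepithelial markers tested, of 6, rose and 0 fell, beside 17.6% and 17.4% of all genes. The summed level of the 6 was 6.12 to 7.81 CPM with lean, 1.04 to 2.62 with obese and 1.11 to 1.6 in control. Most of the lean sum was Krt5. Cdh3, the other marker tested, was at 0.732 CPM with lean and 1.04 with obese, and Krt14 at 0.234 and 0.219. Of 6 smooth muscle markers, 1 was tested in NMuMG and 3 in E0771. Smtn, smoothelin, fell in both lines, by 0.24 in NMuMG (adjusted p = 0.000108) and by 0.25 in E0771 (adjusted p = 2.14e-05). Synpo2, on the same list, rose by 1.98 in E0771 (adjusted p = 3.23e-05). The list thus gave 0 higher and 1 lower in NMuMG, and 1 higher and 1 lower in E0771, beside the same shares of all genes. The part of these markers in the results was not tested.

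The genes whose log2 CPM was most like that of Acta2 over the 9 NMuMG libraries were Fstl1 (Pearson r 0.995), Foxp1 and Vat1l (0.993), and Camk2n1 and Anxa13 (0.992), among 10187 genes compared. The genes most like Tagln were Pros1 (0.993), Filip1l (0.991), Tubb4a (0.99), and Rbbp8 and Cdkn1b (0.989). Acta2 and Tagln had an r of 0.988 with each other, and Acta2 had -0.98 with Ccn1 and -0.992 with Ccn2. In E0771 the genes most like Acta2 were Cers6 (0.996), Zfp597 (0.992), Cherp and Jmjd4 (0.991) and Pomgnt1 (0.99), of 9539, and Acta2 had an r of 0.982 with Tpm1, 0.983 with Ccn1 and -0.789 with Ccn2. The libraries fall into 3 media, so these values mostly describe the order of the media, and no test was made.

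Sequence shared with close relatives was small where it could be measured. Of the 50-base words of the Acta2 transcript, 0.326% (7 of 2146) also occurred in Actg1, and 0 in Actg2. Tagln shares 1241 exon bases with the opposite-strand gene Gm48529 (35 to 69 counts per NMuMG library, 17 to 38 in E0771). It shares 108 with Pcsk7, also on the opposite strand (1114 to 1692 counts in NMuMG, 655 to 1086 in E0771). Tagln itself had 69 to 407 and 1 to 12 counts. Ccn2 shares 665 exon bases with Gm15270 (6 to 32 in NMuMG). The libraries were directional, but the strand setting used in counting is not given in the sources used here, so reads of these pairs may not be separable.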

How the data were processed

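Poly(A) RNA of 30 libraries was measured by sequencing (directional kit, per the labels). Adapters were trimmed with cutadapt 1.16, reads aligned with STAR 2.7.9a and counted with featureCounts 1.6.3, per the submitters' processing notes, which name build GRCm39. The human build, the annotation release and the strand setting are not given in the sources used here. The values are raw read counts per gene ID as deposited by the authors.

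From these counts, edgeR 4.0.16 (R 4.3.3) fitted a robust quasi-likelihood model per line over its 3 media after filterByExpr and TMM scaling, and one over all 18 mouse libraries for differences between lines. P-values were Benjamini-Hochberg adjusted over all genes tested, and a call was an adjusted p under 0.05. CPM used TMM-scaled library sizes. Mouse symbols and exon lengths came from GENCODE M21 (52073 of 56980 IDs had a symbol), whose build differs, so no gene coordinates are given. The code was tested on simulated data. The genes named are the members, up to 3 called genes of each list per mouse line with the largest lean over obese change, the main upstream factors, and the 5 genes most like Acta2 or Tagln; 1 gene that the rule names is not reported here. Marker genes and genes named for obese over control were printed as checks. The members and lists were chosen with earlier results of these data known. DESeq2 1.42.0, other scalings, filters, thresholds, a replicate block and leaving out each library were alternatives.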

Additional observations from a re-analysis of the deposited data

Results flagged for a closer look

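Each result here is the log2 fold change in NMuMG minus that in E0771 under the same contrast. For lean over obese secretome, the difference was -2.42 for Acta2, -3.39 for Myl9 and 1.03 for Ccn2. For lean over control it was -2.99 for Acta2, -4.15 for Myl9, -0.71 for Tpm1 and 1.04 for Ccn2. In each case every lean library of one line lay on the opposite side of its comparison group from every lean library of the other line. These 7 differences count as not tested, since the NMuMG side of them chose the genes. For obese over control, the Acta2 difference was -0.57 and its test passed (SE 0.116, edgeR adjusted p = 0.00433): Acta2 fell in NMuMG by 0.67, and in E0771 the difference was -0.11. That test shares its NMuMG control and obese libraries with the contrasts that chose the genes, so it is not independent of the choice. Growth medium differed between the lines and cannot be told apart from the line. For the 2 human genes in the 3 SkBr3 media, 6 sets of 4 libraries were examined by the gap of the outermost value over the range. In 0 of them did the gap pass its cutoff, which in sets of 4 only a very wide gap can do. TAGLN in lean replicate 3, at 12.9 CPM, still lay above the other lean libraries (8.65 to 9.84). The mouse sets of 3 libraries were not examined.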

How the results depend on the processing

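Over 867 combinations of a gene result within a line and an alternative setting, 824 kept their direction and their side of the threshold. Of the rest, 30 lost the call and 13 gained one. Called values changed sign in 0 combinations, and 14 values that were called in neither fit changed sign. Differences between lines, and settings that gave a gene no adjusted p, are left out of these numbers. The NMuMG lean contrasts, which chose the genes, are included. Of the 4 genes called for obese over control in NMuMG, 2 were called at an adjusted p under 0.01 and 2 in the fit of all 18 mouse libraries, and leaving out 1 library gave 2 (without control replicate 1 or obese replicate 1) to 5. For lean over obese in NMuMG, the 7 called became 4 to 7, with 4 without obese replicate 3, and nothing is read from these counts since the contrast chose the genes. In SkBr3, lean over obese gave 1 of 2 at an adjusted p under 0.01 and 1 to 2 when a library was left out (1 without lean replicate 2). Obese over control gave 1 with no filter on low counts and 0 to 1 when a library was left out (1 without obese replicate 2). The cause was not tested.

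Same-numbered libraries of different media were little correlated in their deviations from the group means: the 30 correlations ran from -0.0942 to 0.11. These were taken over all genes tested, so they cannot show whether libraries were paired for part of the genes, which was not tested. With the replicate block the counts of called genes were 7, 8 and 4 in NMuMG, 5, 4 and 0 in E0771 and 2, 2 and 0 in SkBr3 (lean over obese, lean over control, obese over control), as without it.

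Genes called among all genes for obese over control ranged from 79 (without control replicate 1) to 626 (no filter on low counts) in E0771 against 360, from 20 (without obese replicate 4) to 849 (only the 2 groups compared) in SkBr3 against 172 (655 without lean replicate 3), and from 355 (adjusted p under 0.01) to 893 (without obese replicate 2) in NMuMG against 752. Counts of 1 to 27 per library limit Cnn1, Myl9 and Tpm2 in NMuMG, and Actg2, Tagln and Cnn1 were too low to test in E0771.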

Other observations

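With obese secretome over control, a few genes of the related lists passed. In NMuMG the growth factor binding protein Igfbp3 rose by 0.42 (SE 0.0417, edgeR adjusted p = 3.93e-08) and Nr4a1 by 0.53 (SE 0.111, 0.00253), while Tgfbr1, the type I TGF-beta receptor, fell by 0.30 (SE 0.0474, 0.000177) and Cdh1, E-cadherin, by 0.17 (SE 0.0323, 0.000577). In E0771 Ccn5, a CCN protein that lacks the C-terminal module of Ccn1 and Ccn2, rose by 1.06 (SE 0.0915, 4.38e-07), from 12.4 to 25.6 CPM, and the filament crosslinker Flna fell by 0.20 (SE 0.0417, 0.0118). These genes were chosen after their values were seen.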
